A study of Mus musculus with 6 samples.

Results

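The liver tumours described here had formed in wild-type (WT) mice that received diethylnitrosamine (DEN), a carcinogen that damages DNA and initiates liver tumours, followed by phenobarbital (PB) in the drinking water, a drug that promotes their growth. Their RNA was hybridised against liver RNA of CAR-knockout (CAR-KO) mice that had been given the same carcinogen and the same drug. The arrays were chosen by their sample titles and tissue labels, which gave 2 of the 6 arrays of the series, one for each dye orientation (tumour array 1 with the tumour in Cy5, tumour array 2 with the tumour in Cy3). Both groups had the C3H/HeNCrlBR(C3He) background and were 39 weeks of age. The labels do not give the sex, the number of animals or tumours behind each RNA, the amount of surrounding liver in the tumour samples, or whether the CAR-KO livers carried tumours. The other 4 arrays enter the fit: a dye-swapped pair that set WT liver against CAR-KO liver, each from mice given DEN and PB (the WT pair), and a dye-swapped pair that set CAR-KO mice given DEN and PB against CAR-KO mice given DEN without PB (the PB pair). A ratio of WT tumour over CAR-KO liver may differ from 1 through the genotype, the tumour or both, or through other differences between the samples or arrays. In these 2 arrays the genotype and the tumour cannot be told apart.

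CAR, the constitutive androstane receptor encoded by Nr1i3, is a nuclear receptor of hepatocytes that PB activates. Once in the nucleus it turns on genes of drug metabolism, and mice that lack it are known to be resistant to tumour promotion by PB. Hepatocytes differ along the blood flow of the lobule: Wnt signals near the central vein act through beta-catenin and maintain a pericentral set of genes, whereas urea synthesis, gluconeogenesis and amino acid breakdown are placed nearer to the portal vein. Liver tumours promoted by PB in mice are known to carry activating beta-catenin mutations often. The stated aim of the series was to find genes that CAR regulates and that become more active while liver tumours form, and Tuba8, an alpha-tubulin gene, was taken further.

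Most spots were flagged well above background in Cy3 and Cy5 (98.67% and 93.12% on array 1, 96.07% and 91.12% on array 2). This flag does not compare a spot with the negative-control spots. Before background subtraction their median signal on array 1 was 171.5 (Cy3) and 74.1 (Cy5), against 238.8 and 169.5 over all other spots. On array 2 it was 308.4 and 301.5, against 493.5 and 417.9. Tumour array 2 came from another scanner, with a local background of 288 (Cy3) and 299 (Cy5) against 58 and 61 on array 1. Over all probes the ratios spread more on array 1 (SD of the log2 ratio 0.62) than on array 2 (0.40), and after both were turned to tumour over CAR-KO liver they correlated at r = 0.39, or 0.65 once the dye effect estimated from all 6 arrays was taken off (across probes, which are not independent). Among genes that did not pass the test, 52 had a log2 ratio under -2 on array 1 and 0 did on array 2. Of those 52 genes, 47 lay within 0.5 of 0 on array 2, and they were dim (median log2 intensity 6.56 against 7.36 over all genes). The plot of array against array shows this tail along the horizontal axis.

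**Figure D1:**
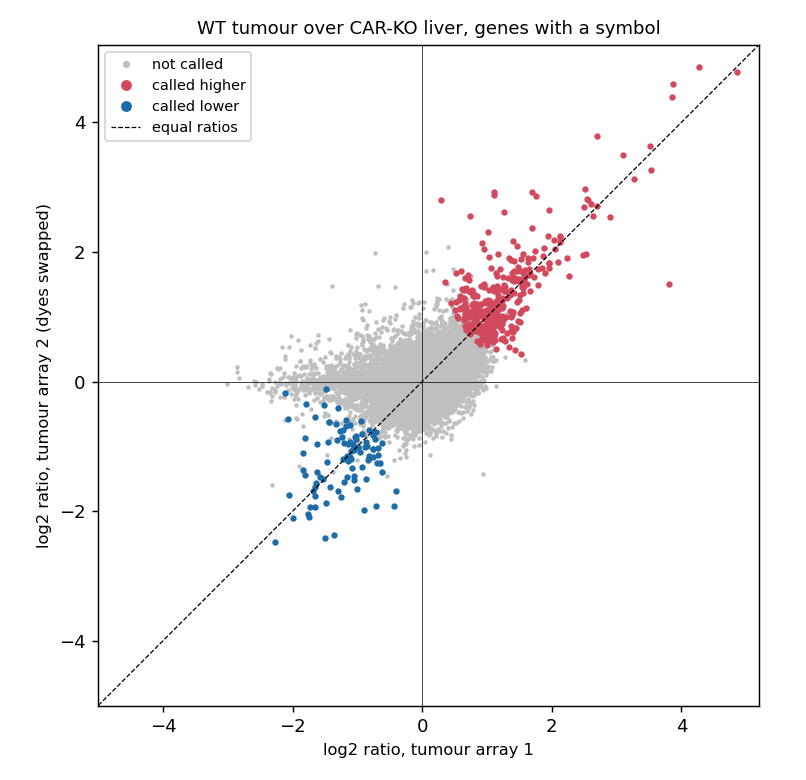
Each point is one of the 9942 genes with a symbol, at its log2 ratio of WT tumour over CAR-KO liver on tumour array 1 (horizontal) and on tumour array 2 with the dyes swapped (vertical), both axes in log2 units. Called genes are higher (341, red) or lower (96, blue) and lie around the dashed line of equal ratios. They have the same sign on both arrays, which the call itself favours. Uncalled genes (grey) include 47 that were under -2 on array 1 and within 0.5 of 0 on array 2.

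In all, 20744 probes were tested, and a probe was called when its Benjamini-Hochberg adjusted p from limma was under 0.05. WT tumour was higher than CAR-KO liver for 524 probes (2.53%) and lower for 174 (0.839%), and in either direction 3.36% were called. All 698 had the same sign on both arrays, against 59.1% of all probes. The fitted ratio is the mean of these same arrays, so a call itself favours the same sign, and this is not a separate check. The difference reached 2-fold for 328 of the higher and 105 of the lower probes, 4-fold for 53 and 7, and 8-fold for 12 and 0. The median log2 ratio of the higher probes was 1.10 (1.11 on array 1 and 1.16 on array 2), and that of the lower probes was -1.05 (-1.16 and -1.04). Taking 1 probe per gene, 341 of 9942 genes with a symbol were higher (3.43%) and 96 were lower (0.966%), and these shares are the background for every list below. The median log2 ratio over all 9942 genes was 0.015. Calls were most frequent among bright probes: over 5 bins of brightness, 6.94% of the brightest bin and 0.193% of the dimmest bin were called. In the brightest bin 174 of 4149 probes were higher and 114 lower. The background shares do not take brightness into account, so they may be too low for lists of bright genes.

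Counts depended on single arrays and on the scaling. Leaving out an array of the WT pair gave 318 higher and 100 lower probes, and leaving out an array of the PB pair gave 218 and 67. Within each of these pairs, either array gives the same tumour fit by construction, because the array left in is fitted exactly by its pair's coefficient. The arrays of such a pair are therefore 1 check, not 2. Without tumour array 1 the counts were 531 and 176, and without tumour array 2 they were 1799 and 2909, so that the share of higher calls went from 75.1% to 38.2%. With each array centred on its median and not fitted by loess, 2370 were higher and 1763 lower (57.3% higher), and with the software's processed signals 0 probes passed (2846 at an unadjusted p under 0.05; lowest adjusted p = 0.0803). The 698 probes kept their direction under each alternative that tested them (the filter on both channels tested 690 of them), and 272 of the 698 (215 higher, 57 lower) passed without each of the 6 arrays in turn. All 698 had the same sign on both tumour arrays, which favours a kept direction, so the kept direction is not a separate check. Below, calls of list members that were lost when 1 array was left out are pointed out, where one is given, with an adjusted p from those fits.

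The largest increase among named genes was that of Ly6d, which encodes a small membrane-anchored surface protein. Its log2 ratio was 4.85 on array 1 and 4.79 on array 2, fitted as 4.82 ± 0.17 (28.2-fold, limma adjusted p = 9.1e-05). Here and below, ± gives the SE from the limma fit over all 6 arrays, not the spread between the 2 tumour arrays. On the log2 intensity scale Ly6d was at 12.2 and 12.5 in tumour and 7.4 and 7.8 in CAR-KO liver. Pnliprp1, a relative of pancreatic lipase, followed outside the P450 family with 3.86 and 4.38 (fitted 4.12 ± 0.15, adjusted p = 9.1e-05), and 8 other tested markers of pancreatic acini did not pass (-0.998 for Cela2a to 0.35 for Pnliprp2). The 9 acinar markers, Pnliprp1 included, summed to a linear signal of 3422 and 3789 in tumour and 2226 and 2415 in CAR-KO liver, and their part in this result was not tested. Tuba8 had log2 ratios of 2.51 and 2.98, fitted as 2.74 ± 0.20 (6.7-fold, limma adjusted p = 0.0011). Its levels were 8.9 and 9.5 in tumour and 6.4 and 6.5 in CAR-KO liver. The CAR-KO levels were thus close to the dimmest of the 5 brightness bins (mean log2 intensity 5.84 to 6.43). Over 17 alternative settings the fitted ratio of Tuba8 ran from 1.58 to 3.63. Tnfrsf19, a receptor of the tumour necrosis factor family, was at 2.56 and 2.80, and Akr1b7, an aldo-keto reductase, at 2.49 and 1.96. These 5 genes passed without each array in turn.

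At the other end, Etnppl, which breaks down phosphoethanolamine, had log2 ratios of -2.27 and -2.48, fitted as -2.37 ± 0.16 (5.19-fold lower, adjusted p = 0.00095). Fut2, a fucosyltransferase, was at -1.50 and -2.42, and Ces1e, a carboxylesterase, at -2.06 and -1.74. Mug1, a plasma protease inhibitor, was at -1.66 and -1.77, and Gldc, the glycine-cleaving enzyme of mitochondria, at -1.66 and -1.63. Retsat, a retinol saturase, Nnmt, which methylates nicotinamide, and the mitochondrial serine carrier Sfxn1 had fitted ratios of -1.52, -1.52 and -1.51. The probe named for the olfactory receptor Olfr166 was at -1.35 and -2.36, with a log2 level of 11.4 and 13.9 in CAR-KO liver. The calls of Etnppl, Fut2, Ces1e, Mug1, Gldc, Nnmt, Sfxn1 and Olfr166 held without each array in turn, and that of Retsat was lost without tumour array 2. None of the decreases among named genes reached 8-fold. The plot of the largest changes shows how close the 2 arrays lay for most of these genes and how far apart they lay for a few (Cyp2a4, Fut2, Olfr166, Myh2).

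**Figure D2:**
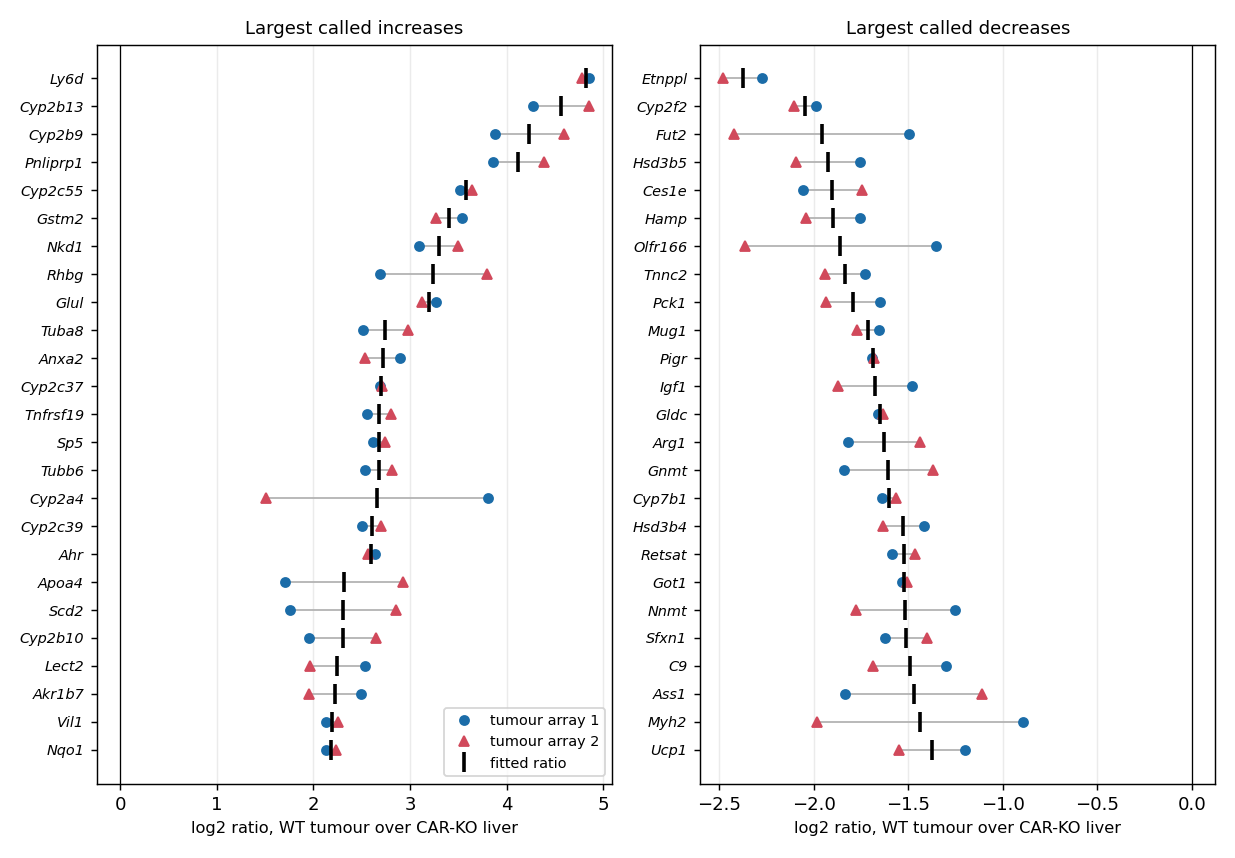
For the 25 genes with the largest called increases (left) and decreases (right), the points give the log2 ratio of WT tumour over CAR-KO liver (horizontal axis) on tumour array 1 (blue circles) and tumour array 2 (red triangles), and the black bar gives the fitted ratio. For every gene shown both arrays lie on the same side of 0, which the call itself favours. Fitted ratios run from 4.82 for Ly6d to -2.37 for Etnppl, and the arrays differ most for Cyp2a4 (3.81 and 1.51).

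The drug-metabolising genes that CAR and PB are known to control were higher in WT tumour. Of 30 tested phase I genes, which encode enzymes that oxidise or hydrolyse foreign compounds, 16 were higher and 0 lower (median log2 ratio 1.05; 15 to 17 higher without 1 array). The Cyp2b genes led: Cyp2b13 was at 4.28 and 4.85 (fitted 4.56 ± 0.18), Cyp2b9 at 3.87 and 4.59 (4.23 ± 0.20) and Cyp2b10, the classical PB-induced P450 of mouse liver, at 1.96 and 2.65 (2.30 ± 0.16). Among Cyp2c genes, Cyp2c55 was at 3.52 and 3.64, Cyp2c37 at 2.69 and 2.71, Cyp2c39 at 2.50 and 2.70 and Cyp2c29 at 2.13 and 2.16. Cyp2a4, a steroid hydroxylase, had very unequal arrays (3.81 and 1.51, fitted 2.66 ± 0.32, adjusted p = 0.0058). Por, the reductase that supplies electrons to microsomal P450s, was at 1.96 and 1.84, and the epoxide hydrolase Ephx1 at 1.02 and 2.31. The flavin monooxygenases Fmo5 and Fmo1 had fitted ratios of 1.42 and 1.40, and the aldehyde dehydrogenases Aldh3a2, Aldh1a1 and Aldh1a7 had 1.74, 1.22 and 0.87. Cyp1a2, an aryl hydrocarbon receptor target, was at 0.92 and 2.15. Members that did not pass include Cyp3a11 (0.44), Cyp3a13 (0.55), Cyp2c38 (0.66), Cyp2e1 (0.20) and Cyp2d26 (-0.47). Of the 16 calls, that of Aldh1a7 was lost in some fits that left out 1 array (adjusted p up to 0.0852). Members within the Cyp2b, Cyp2c or Cyp2a subfamily are close in sequence to one another, and the files give no probe sequences, so the share of each gene in a probe's signal was not tested.

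Conjugating enzymes and exporters (phase II and III) were less uniform, with 8 of 24 tested genes higher and 1 lower (median 0.46). Gstm2, a glutathione S-transferase, was at 3.54 and 3.27 (fitted 3.40 ± 0.19, 10.6-fold). Sult1e1, the oestrogen sulfotransferase, was at 2.26 and 1.63, and Abcc2, the exporter of conjugates into bile, at 1.56 and 1.45. Gstm5, Gsta1, Mgst3 and Sult1c2 had fitted ratios of 1.64, 1.48, 1.26 and 1.09. Gstm6 passed on unequal arrays (0.29 and 2.81), and its call was lost when a PB-pair array was left out (adjusted p = 0.0969), as were those of Sult1c2 (0.0597) and Gstk1 (0.0633), which left 6 higher and 0 lower. Gstk1, a mitochondrial and peroxisomal transferase, was the lower member (-0.96 and -1.08). Other members did not pass, among them Gstm1 (0.96), Abcb1a (0.32) and Gstp1 (-0.78).

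Genes under NRF2, the transcription factor of the antioxidant response, were partly higher. Of 14 tested, 6 were higher and 1 lower (median 0.85), with 5 to 8 higher and 0 or 1 lower without 1 array. Nqo1, a quinone reductase, was at 2.13 and 2.23 (fitted 2.18 ± 0.16, adjusted p = 0.0011). Ugdh, which makes UDP-glucuronate for conjugation, was at 2.03 and 2.18, the glutathione peroxidase Gpx2 at 1.64 and 1.90, thioredoxin reductase Txnrd1 at 1.23 and 1.13 and glutathione reductase Gsr at 1.06 and 1.21. Malic enzyme Me1 was at 0.53 and 1.68. Its call was lost without an array of the WT or the PB pair (adjusted p up to 0.119) and without tumour array 2. Metallothionein Mt1 was lower (-0.81 and -1.18) and lost its call without an array of the WT or the PB pair (up to 0.0626). Hmox1 (0.59), Gclm (0.45), Slc7a11 (0.32), Txn1 (0.60) and Ftl1 (1.11) did not pass. Nfe2l2, which encodes NRF2 itself and was chosen for mention after its values were seen, was at 1.35 and 1.33 (fitted 1.34 ± 0.21, adjusted p = 0.019).

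RefSeq promoter windows of GRCm38.p6 (250 bases before to 50 bases after a start) matched 7725 of the genes tested. The core of the antioxidant response element, TGACNNNGC on either strand, was present in a window of 1193 of these genes (15.4%), of 42 of 254 genes called higher (16.5%) and of 9 of 76 called lower (11.8%). Of the 6 called NRF2 genes with a window, 3 held it, and their stretches before the start are shown because they were called in 1 direction, with the element in capitals. The Me1 stretch (chr9:86695912-86696164, minus strand) runs past the start to complete the element, which there overlaps the AP-1 motif TGACTCA. The Txnrd1 stretch (chr10:82858956-82859205, plus strand) belongs to 1 of 3 listed starts, and the Ugdh stretch (chr5:65435843-65436092, minus strand) holds the element on both strands.
Me1: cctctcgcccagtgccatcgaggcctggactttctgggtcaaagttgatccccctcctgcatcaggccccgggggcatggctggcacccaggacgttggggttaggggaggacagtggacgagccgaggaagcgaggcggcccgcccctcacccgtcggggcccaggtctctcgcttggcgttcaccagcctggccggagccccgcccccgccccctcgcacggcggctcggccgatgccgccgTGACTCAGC
Txnrd1: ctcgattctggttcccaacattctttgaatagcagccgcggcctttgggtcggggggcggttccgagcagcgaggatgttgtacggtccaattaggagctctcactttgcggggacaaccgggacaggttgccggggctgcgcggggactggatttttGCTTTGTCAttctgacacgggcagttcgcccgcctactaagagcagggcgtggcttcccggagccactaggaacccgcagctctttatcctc
Ugdh: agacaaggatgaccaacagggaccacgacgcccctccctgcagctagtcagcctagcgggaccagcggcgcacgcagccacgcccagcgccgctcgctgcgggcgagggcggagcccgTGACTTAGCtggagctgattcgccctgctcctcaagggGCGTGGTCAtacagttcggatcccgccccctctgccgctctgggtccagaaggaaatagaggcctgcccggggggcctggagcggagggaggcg
A match says only that these letters stand in the window. The AP-1 motif TGACTCA was in a window of 5.76% of all these genes, 6.3% of those called higher and 6.58% of those called lower, and exact matches to a direct repeat spaced by 4 bases were in 0 windows.

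Pericentral genes and known targets of beta-catenin had the highest list median. All 21 tested members had a positive ratio, and 15 were higher and 0 lower (median 1.64; 12 higher without an array of the WT or PB pair, 14 without tumour array 2). Nkd1, a feedback inhibitor of Wnt signalling, was at 3.10 and 3.49 (fitted 3.30 ± 0.16, 9.82-fold, adjusted p = 0.00021). Rhbg, an ammonium transporter, was at 2.69 and 3.79 (3.24 ± 0.17), and Glul, the glutamine synthetase of the innermost pericentral cells, at 3.27 and 3.12 (3.20 ± 0.24). On the log2 intensity scale Glul was at 13.2 and 13.3 in tumour and at 9.9 and 10.2 in CAR-KO liver. Sp5, a transcription factor induced by Wnt, was at 2.61 and 2.75, the aryl hydrocarbon receptor Ahr at 2.64 and 2.56, and the secreted protein Lect2 at 2.53 and 1.96. Lgr5, the R-spondin receptor, was at 1.64 on both arrays, and ornithine aminotransferase Oat at 1.67 on both. The transporters Slc13a3 and Slc1a2, for dicarboxylates and glutamate, had a fitted ratio of 1.78 each. Calls of Rgn (1.07, adjusted p up to 0.0668), Myc (0.92, up to 0.0760) and Avpr1a (0.81, up to 0.164) were lost in some fits that left out 1 array. Ccnd1 (0.88), Axin2 (0.21), Tcf7 (0.03), Cyp2e1 (0.20), Cyp27a1 (0.16) and Slco1b2 (0.45) did not pass; the arrays of Ccnd1 were 0.06 and 1.71.

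The TCF/LEF core ATCAAAG, which the partners of beta-catenin bind, was in a promoter window of 279 of the 7725 genes on either strand (3.61%), of 13 of 254 genes called higher (5.12%) and of 3 of 76 called lower (3.95%). Of the 10 called pericentral genes with a window, 3 held it. Their stretches of 250 bases before the start follow because these genes were called in 1 direction, with the core in capitals: Sp5 (chr2:70474673-70474922, plus strand), Slc1a2 (chr2:102706188-102706437, plus strand) and Lect2 (chr13:56548539-56548788, minus strand).
Sp5: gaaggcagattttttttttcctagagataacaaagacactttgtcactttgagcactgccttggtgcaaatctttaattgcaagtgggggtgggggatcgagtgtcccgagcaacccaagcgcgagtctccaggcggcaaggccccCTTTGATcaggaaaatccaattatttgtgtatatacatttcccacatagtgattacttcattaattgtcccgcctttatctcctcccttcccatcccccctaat
Slc1a2: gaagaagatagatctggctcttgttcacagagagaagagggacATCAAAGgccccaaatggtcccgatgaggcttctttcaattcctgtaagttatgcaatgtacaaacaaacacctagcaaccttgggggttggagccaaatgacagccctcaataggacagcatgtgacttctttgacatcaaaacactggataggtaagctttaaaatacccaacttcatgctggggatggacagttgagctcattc
Lect2: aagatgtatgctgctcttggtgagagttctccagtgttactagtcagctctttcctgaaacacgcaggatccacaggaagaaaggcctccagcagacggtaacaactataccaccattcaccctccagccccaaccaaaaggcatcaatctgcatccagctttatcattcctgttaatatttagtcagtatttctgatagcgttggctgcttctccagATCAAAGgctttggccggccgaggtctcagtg
In Sp5 the core lies on the opposite strand, read as CTTTGAT, and its first base is at -104 from the start; in Slc1a2 and Lect2 it lies on the gene's strand, at -207 and -32.

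The genes of the Wnt pathway itself moved little. Of 47 tested ligands, receptors, inhibitors and core components, 1 was higher and 1 lower (median -0.17). The co-receptor Lrp5 was at 0.81 and 1.14 and the repressor Tcf7l1 at -0.72 and -0.77, and both calls were lost without an array of the PB pair (adjusted p = 0.0654 and 0.128). Ctnnb1, which encodes beta-catenin, was at a fitted 0.32 and did not pass. Without tumour array 2, 13 members were lower, and without tumour array 1 none was, and the list median without tumour array 1 was 0.000663. Ccn4 and Ccn5, secreted matricellular proteins first described as Wnt-induced and chosen for mention after their values were seen, had fitted ratios of 1.60 and 1.47 (adjusted p = 0.0039 and 0.0043). Wwtr1, a transcriptional coactivator of the Hippo pathway chosen in the same way, was at 1.57 on array 1 and 1.56 on array 2.

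**Figure D3:**
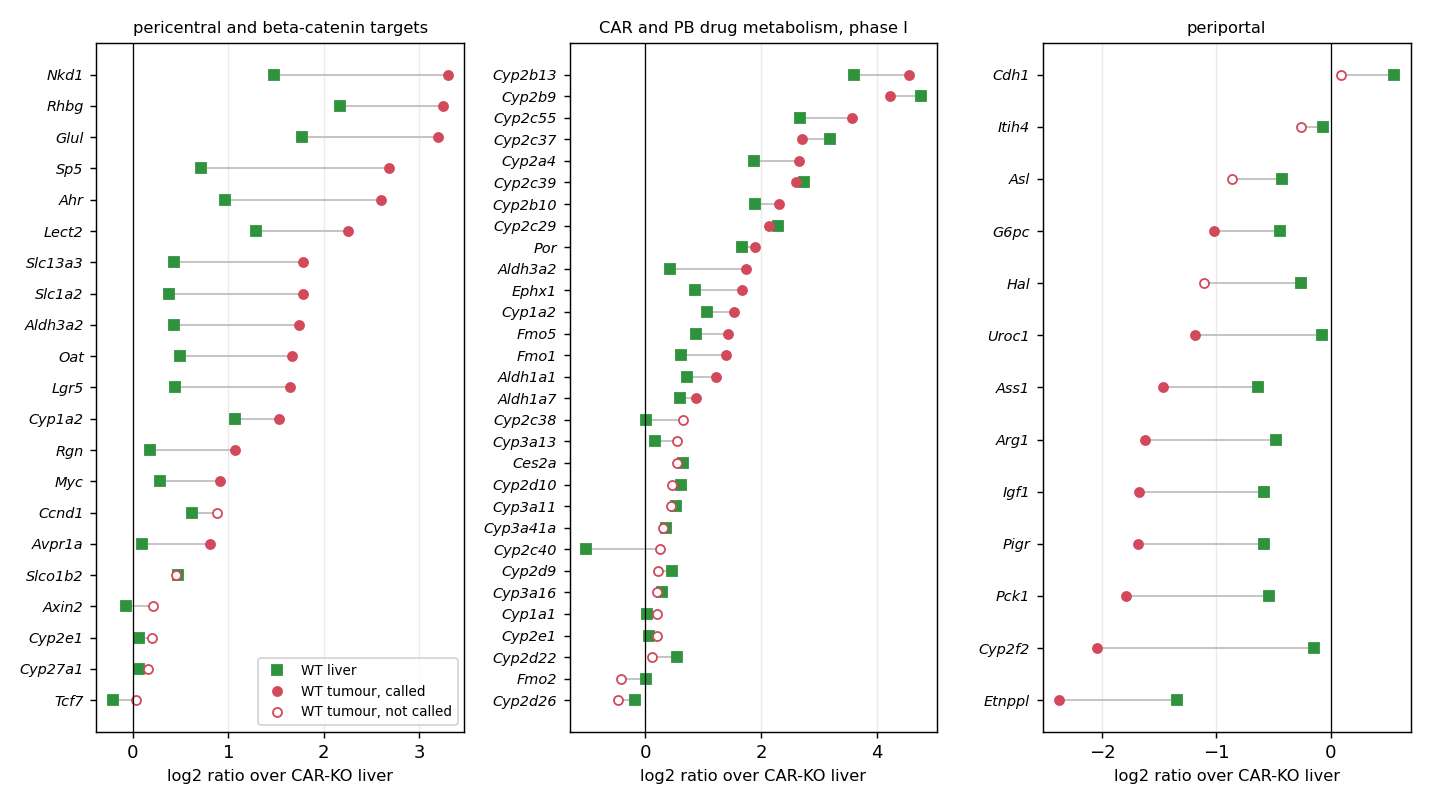
Fitted log2 ratios over CAR-KO liver (horizontal axis) for the tested members of 3 gene lists, in WT tumour (red circles, filled where called) and in WT liver (green squares), joined by a line for each gene. Pericentral genes such as Nkd1 (3.30 and 1.48) and periportal genes such as Cyp2f2 (-2.05 and -0.15) lay further from 0 in tumour, and Cyp2b9 (4.23 and 4.76) did not; no single difference between tumour and WT liver passed the test.

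Periportal genes were lower. Of 13 tested, 9 were lower and 0 higher (median -1.47; 8 to 10 lower without 1 array). Besides Etnppl, Cyp2f2, a P450 of the periportal zone, was at -1.99 and -2.10 (fitted -2.05 ± 0.17, 4.13-fold lower, adjusted p = 0.0016). Pck1, which commits carbon to glucose synthesis, was at -1.65 and -1.94, with a log2 level of 12.1 and 12.3 in tumour and 13.7 and 14.2 in CAR-KO liver. Pigr, the receptor that carries IgA into bile, was at -1.69 and -1.68, and Igf1 at -1.48 and -1.87. Arginase Arg1 was at -1.82 and -1.44, and Ass1, which forms argininosuccinate, at -1.83 and -1.11; the call of Ass1 was lost without tumour array 2 (adjusted p = 0.0611). Uroc1, a histidine-degrading enzyme, had a fitted ratio of -1.19. G6pc, which releases free glucose, was at -1.11 and -0.94 and lost its call without an array of the WT or PB pair (adjusted p up to 0.0612). Asl (-0.86), Hal (-1.11), Itih4 (-0.26) and Cdh1 (0.09) did not pass.

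Amino acid catabolism and the urea cycle gave 9 lower and 1 higher gene of 30 (median -0.61; 7 to 10 lower without 1 array). The higher member was Oat, which is pericentral. Got1, the cytosolic aspartate aminotransferase, was at -1.53 and -1.51, and the methyl-group enzyme Gnmt at -1.84 and -1.37. Ftcd, Agxt, Aass and Ahcy, enzymes of histidine, glyoxylate, lysine and methionine metabolism, had fitted ratios of -1.21, -1.05, -0.98 and -0.77, and the last 3 lost their calls when 1 array was left out (adjusted p up to 0.0560, 0.0732 and 0.114). Bhmt was at -1.90 and -1.30 and did not pass (limma adjusted p = 0.12), and its 2 arrays of the PB pair were at -0.37 and 3.29. Mat1a (-0.95) and Otc (-0.71) did not pass either. Of 13 genes of gluconeogenesis and glycogen, 4 were lower and 1 higher. Fbp1 was at -1.16 and -1.47, and the glycogen-branching enzyme Gbe1 was the higher one (1.24 and 0.89; adjusted p = 0.0555 without an array of the PB pair). With median centring the medians of this list and of the amino acid list became 0.229 and -0.169, with 4 higher and 3 lower and with 5 higher and 6 lower members, while the periportal list kept 9 lower (median -1.03).

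Genes of lipid metabolism divided. For cholesterol synthesis and uptake, 5 of 16 were higher and 0 lower (median 0.55): Sqle (1.04 and 1.10), Nsdhl (1.01 and 1.06), Fdps (0.84 and 1.19), Mvd (0.64 and 1.29) and Fdft1 (0.87 and 0.90), all enzymes of the mevalonate and sterol route. This count was 0 without an array of the PB pair, 2 without an array of the WT pair, 3 without tumour array 1 and 8 without tumour array 2. In fatty acid synthesis 4 of 21 were higher and 2 lower (2 higher and 1 lower without an array of the WT or PB pair, 6 higher without either tumour array). Scd2, a desaturase of fetal and tumour liver, was at 1.76 and 2.86, and the elongase Elovl6 at 1.66 and 1.40, whereas Elovl3, an elongase higher in male liver, was at -0.93 and -1.32. Gpam (0.90 and 1.19) and Me1 were higher and Cidea (-0.68 and -1.14) lower in fits that lost their calls without an array of the WT or PB pair. The lipoprotein genes Apoa4 (1.70 and 2.93) and Lpl (1.88 and 2.05) were higher, as was Apobec1 (1.18 and 0.93), which edits apolipoprotein B mRNA, and Apom was lower (-0.68 and -1.03), which made 3 higher and 1 lower of 24. The call of Apobec1 was lost without an array of the PB pair (adjusted p = 0.056). Without an array of the WT or PB pair 0 of these were lower, and without tumour array 1 and 2 there were 4 and 3; the list median of -0.30 became 0.214 with median centring. Cd36, the fatty acid transporter, chosen after its values were seen, was at 1.90 and 1.68. Of 23 bile acid genes 2 were higher and 1 lower: besides Abcc2, Amacr was at 0.68 and 0.84 (adjusted p up to 0.119 without 1 array), and Cyp7b1, an oxysterol hydroxylase, was at -1.64 and -1.56. Cyp7a1, the rate-limiting enzyme of bile acid synthesis, was at 0.18 and did not pass. For fatty acid oxidation 2 of 19 were higher, Pdk4 (1.50 and 1.26) and Acot1 (0.96 and 1.46), and Slc27a2 was lower (-1.51 and -0.36; adjusted p up to 0.176).

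Genes known to differ between male and female mouse liver were called on opposite sides. Of 15 male-biased genes 5 were lower and 0 higher (median -0.64, or 0.0304 with median centring; 4 to 6 lower without 1 array). Hsd3b5, a steroid dehydrogenase of male liver, was at -1.75 and -2.09 (fitted -1.92 ± 0.17), and its neighbour Hsd3b4, outside the list, at -1.42 and -1.63. Cyp7b1, Nudt7 (-1.15 on both arrays), Elovl3 and the major urinary protein Mup1 (-1.45 and -0.62; adjusted p up to 0.13 without 1 array) made up the rest. Of 19 female-biased genes 6 were higher and 0 lower (median 0.25; 5 to 7 without 1 array). Of these, 4 were Cyp2 genes that are also in the CAR list, beside Sult1e1 and Rtn4 (0.97 and 1.04; adjusted p = 0.0605 without an array of the PB pair). Cux2, a female-biased transcription factor, was at -0.30 and did not pass. In the insulin-like growth factor axis, Igfbp1 was at 2.24 and 1.91 and Igf2 at 1.70 and 2.37, while Igf1 was lower. H19, which neighbours Igf2 in the imprinted cluster, was at 0.15 and did not pass, and Dlk1, another imprinted gene of fetal liver, was at 1.26 and 1.39.

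Markers of fetal liver and liver tumours gave 12 of 34 higher and 0 lower (median 0.47; 11 to 14 without 1 array). After Ly6d these were the annexin Anxa2 (2.90 and 2.54), its partner S100a10 (1.96 and 1.82), Scd2, the actin-bundling Vil1 (2.13 and 2.25), Igfbp1, Igf2, Krt8 (1.74 and 2.01), Krt18 (1.72 and 1.62), Ect2, Dlk1 and Krt19. Alpha-fetoprotein Afp was at 0.08 and 0.06 and did not pass, and neither did Gpc3 (0.41) or Spp1 (-0.23). Krt8 and Krt18 are partners in the hepatocyte keratin filament. In all, 6 of 32 genes of actins, keratins and junctions were higher and 0 lower, with N-cadherin Cdh2 at 1.18 and 1.21. Krt19 (1.02 and 1.24), Vim (0.82 and 0.97) and Actg1 (0.56 and 1.26) lost their calls without an array of the PB pair, which left 3. Of 12 tubulins 3 were higher: Tuba8, Tubb6 (2.54 and 2.82) and Tubb5 (0.81 and 1.22; 2 remained called without an array of the PB pair or tumour array 1, 5 without tumour array 2).

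**Figure D4:**
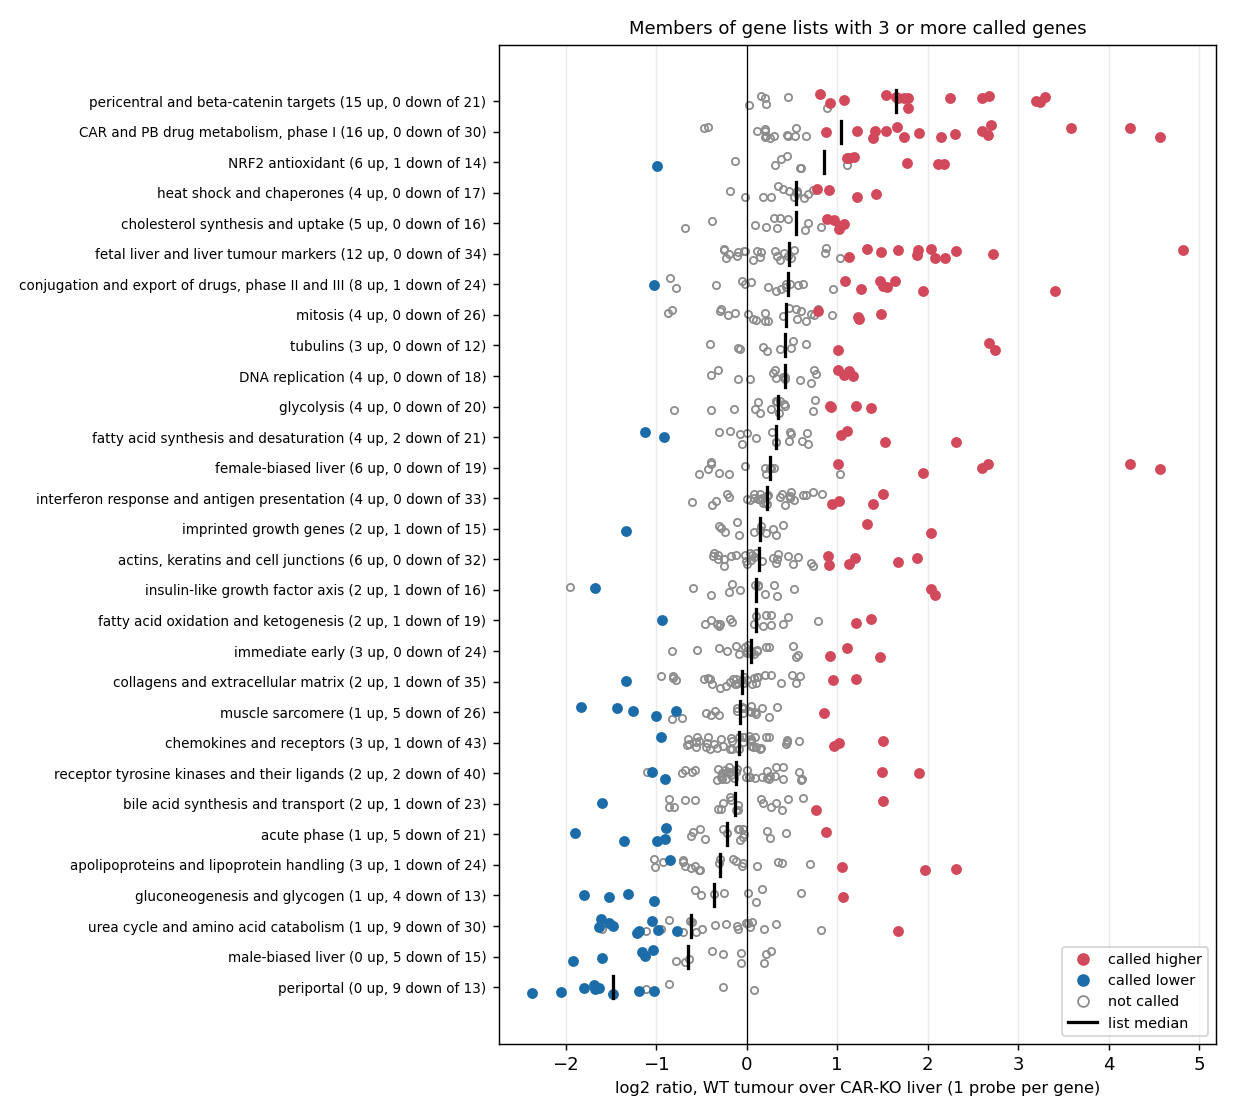
Each point is the fitted log2 ratio of WT tumour over CAR-KO liver (horizontal axis) of 1 tested gene in one of the 30 gene lists with 3 or more called members; red points were called higher, blue points lower and open points were not called, and black bars are list medians. The lists run from a median of 1.64 for pericentral genes to -1.47 for periportal genes, with counts given beside each name.

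Proliferation genes were higher in part. Of 26 mitosis genes 4 were higher and 0 lower (median 0.43; 3 without an array of the WT or PB pair, 5 and 10 without tumour array 1 and 2): Ect2 (1.42 and 1.56), which drives cytokinesis, Plk1 (1.18 and 1.29), Nek2 (1.38 and 1.08) and the centromere histone Cenpa (0.79 and 0.80, adjusted p up to 0.136 without 1 array). Of 18 DNA replication genes 4 were higher: the helicase subunits Mcm6, Mcm4 and Mcm7 (fitted 1.18, 1.08 and 1.01) and ribonucleotide reductase Rrm2 (1.14). None of those 4 passed without an array of the PB pair. Foxm1 (-0.28), Top2a (-0.29), Ccnb1 (-0.20) and Pcna (0.42) did not pass. Among p53 targets Gdf15 (1.02) and Ccng1 (0.95) were higher of 28, and both calls were lost without an array of the WT or PB pair. Of 24 immediate early genes 3 were higher, Jun (1.03 and 1.92), Klf6 (1.13 and 1.09) and Myc (1.03 and 0.80), and 0 of these passed without an array of the PB pair.

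Heat shock genes were mostly positive: 15 of 17 had a ratio above 0, with 4 higher and 0 lower (median 0.55; 2 without an array of the WT or PB pair, 6 without tumour array 2). The co-chaperone Dnajb1 was at 1.24 and 1.62 and the chaperone Hsp90aa1 at 1.36 and 1.08, whereas Bag3 (0.91) and Hspa8 (0.77) were the calls that were lost. Glycolysis gave 4 of 20 higher and 0 lower (2 without an array of the WT or PB pair, 7 higher and 2 lower without tumour array 2): Pdk4, the lactate transporter Slc16a1 (1.16 and 1.26), and Pfkfb3 (0.93) and Hk2 (0.92), whose calls were lost. Hypoxia and angiogenesis genes had 0 calls of 21 in limma (2 lower without tumour array 2, 1 higher without tumour array 1), and the circadian clock 0 of 17 (2 higher and 1 lower without tumour array 2).

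Among acute phase genes, most of those called were lower. Hepcidin Hamp, the iron-regulating hormone, was at -1.76 and -2.04 (fitted -1.90 ± 0.17, 3.73-fold lower), and the fibrinogen chain Fgg at -1.46 and -1.24. Together with Saa1 (-0.89), Saa2 (-0.90) and Mt1, these made 5 lower of 21 acute phase genes, against 1 higher, Orm2 (0.88). Without an array of the WT or PB pair, 2 were lower and 0 higher, and with median centring the list median of -0.22 became 0.0838. Of 36 complement and coagulation genes 2 were lower, C9 (-1.30 and -1.69) and F11 (-0.93 and -0.81), of which 0 passed without an array of the WT pair. The median of that list was -0.20, or 0.369 with median centring. Among 33 interferon-response genes 4 were higher and 0 lower: Cxcl10 (1.43 and 1.59), Usp18 (1.42 and 1.37), Cxcl9 (1.20 and 0.84) and Irgm1 (0.99 and 0.90), with 2 without an array of the PB pair and 9 without tumour array 2. Of 43 chemokine genes and receptors, Ccl2 was higher beside these (1.25 and 0.67) and Cxcl12 lower (fitted -0.95); both calls were lost without an array of the WT or PB pair. Of 40 receptor tyrosine kinases and ligands, Pdgfa (1.86 and 1.94) and Gas6 (1.55 and 1.44) were higher and Egfr (-0.76 and -1.04) and Errfi1 (-1.23 and -0.86) lower; the lower calls were lost without an array of the PB pair. For extracellular matrix genes 2 of 35 were higher, Sparc (1.51 and 0.91) and Nid1 (0.59 and 1.31), and 1 lower, Dcn (-1.01 and -1.66), and none of these 3 calls held without an array of the PB pair.

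Of 40 hepatocyte transcription factors and nuclear receptors, 1 was called. Nr1i3 itself was at 1.71 and 1.90 (fitted 1.81 ± 0.16, 3.5-fold, limma adjusted p = 0.0019). Its log2 level was 8.3 and 8.8 in tumour and 6.6 and 6.9 in CAR-KO liver. Over 17 alternative settings the fitted ratio of Nr1i3 ran from 1.03 to 2.41. Whether this probe lies in the exons removed by the knockout is not known from the files, and its value does not check the genotype. Hnf4a (-0.21), Foxa2 (-0.07), Rxra (-0.06) and Nr1h4 (0.32) did not pass. Without tumour array 2, 5 were higher and 4 lower. Lists of G1 cyclins (1 higher of 18), the pentose phosphate pathway (1 of 6), TGF-beta and BMP signalling (2 of 26), ER stress (1 higher and 1 lower of 23) and iron handling (1 higher and 1 lower of 18) had few calls, and of these only the lower call of iron handling, Hamp, was left without an array of the PB pair.

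The labelled tissue was checked against cell type markers. All 9 tested hepatocyte markers were well above background on both arrays in tumour and in CAR-KO liver, 0 were called, and their summed linear signal was 78230 and 71100 in tumour against 94110 and 87350 in CAR-KO liver (median log2 ratio -0.16, or 0.477 with median centring). Markers of macrophages (0 of 11 called), endothelium (0 of 12), T and NK cells (0 of 11), B and plasma cells (0 of 8), neutrophils (0 of 9) and mast cells (0 of 7) were not called by limma. Without tumour array 2, 2 neutrophil markers and 2 macrophage markers were lower and 1 macrophage marker was higher. The exceptions in other lists were Krt19 among cholangiocyte markers, with Epcam (-0.03), Spp1 and Krt7 (0.03) not called, Dcn among 9 stellate cell markers, and haemoglobin Hba-a1 (-1.10 and -1.08) among 6 erythroid markers; the last 3 calls were lost without an array of the PB pair, and without tumour array 2 there were 4 lower erythroid markers. The erythroid markers summed to 5283 and 5746 in tumour and 10850 and 11620 in CAR-KO liver. Hbb-bt, a haemoglobin gene outside this list chosen after its values were seen, was also called lower (fitted -0.99). Its call was lost without an array of the WT or PB pair (limma adjusted p up to 0.0654). In such bulk samples fewer cells of a type and less RNA per cell cannot be told apart.

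Sarcomere genes of skeletal muscle, which hepatocytes do not use, included a few that were lower in tumour. Of 26 tested sarcomere genes 5 were lower and 1 higher (median -0.08), and their summed signal was 3488 and 3482 in tumour and 4288 and 4927 in CAR-KO liver. The fast troponin Tnnc2 was at -1.73 and -1.94 (fitted -1.83 ± 0.15), the regulatory light chain Mylpf at -1.06 and -1.45, the myosin heavy chain Myh2 at -0.89 and -1.98, and Tnni2 and Sln at -1.01 and -0.79 fitted. Smpx was the higher one (0.85). Only Tnnc2 and Mylpf of these 6 held without each array, and 2 lower members were left without an array of the PB pair. A second probe of Mylpf was at -0.07 and did not pass. Several members were near 0, including Ckm (-0.05), Tnnt3 (0.03) and Atp2a1 (0.05). In the other pairs Tnnc2 was at -1.78 in WT liver over CAR-KO liver and at 1.78 for PB against no PB in CAR-KO mice, which share the CAR-KO liver treated with DEN and PB, and the part of muscle RNA in other results was not tested. Ucp1, the uncoupling protein of brown fat, was also lower (-1.20 and -1.55, limma adjusted p = 0.012), as was Cidea. The log2 level of Ucp1 was 6.1 and 6.0 in tumour and 7.3 and 7.5 in CAR-KO liver. Over 17 alternative settings its fitted ratio ran from -2.43 to -0.567. The fat cell markers Adipoq (-0.21), Lipe (-0.16) and Fabp4 (0.87) did not pass. Of 8 fat cell markers 1 was called, and they summed to 1980 and 2069 in tumour and 1873 and 1892 in CAR-KO liver.

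The RefSeq order of the tested genes gave 9921 adjacent pairs. Of these pairs, 26 had both genes called higher, 4 had both called lower and 5 had opposite calls. Over all tested genes 3.43% were called higher and 0.966% lower. Whether the pair counts, those with opposite calls included, exceed what these shares would give was not tested. Many of the called pairs are gene families in tandem, whose probes may share signal. The run Cyp2b10, Cyp2b13, Cyp2b9 and Cyp2a4 was higher throughout (fitted 2.30, 4.56, 4.23 and 2.66), as was the run Cyp2c55, Cyp2c29 and Cyp2c39. Other pairs higher together were Gstm6 and Gstm2, Aldh1a1 and Aldh1a7, Krt8 and Krt18, Ly6a and Ly6c1 (1.63 and 1.55), and Cxcl9 and Cxcl10. Lower together were Hsd3b4 and Hsd3b5, Serpina3c and Serpina3m (-1.34 and -1.19), and Saa1 and Saa2. Tuba8 adjoined Usp18, which was higher as well (1.39), and Tubb6 (2.68) adjoined Cidea (-0.91), which was lower.

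Probes without a symbol in the reference table carried 180 of the 524 higher and 78 of the 174 lower calls, and those named here by the files' own descriptions were chosen after their values were seen. A probe described as heat shock protein hsp68 was at 2.50 and 2.86, and one for a protein similar to carbonyl reductase 3 at 2.64 and 2.80. Probes for glutathione transferase GSTM7-7 and for the PB-inducible cytochrome P-450b (partial exon 7) were at 1.28 and 2.52 and at 1.49 and 2.50. The beta-tubulin M-beta-2 probe was at 2.32 and 1.96. On the lower side stood a perinatal skeletal myosin heavy chain (-1.89 and -3.51, fitted -2.70), the largest decrease of all probes tested. Myosin heavy chains IIX (-1.92 and -2.32) and IIB (-1.07 and -2.92) and skeletal alpha-actin (-1.23 and -1.75) were lower too. By their descriptions these are muscle genes other than those named above. Major urinary protein V was at -1.78 and -2.26, a homologue of liver glutaminase had a fitted ratio of -2.28, contrapsin was at -1.94 and -1.20, and murinoglobulin MUG3 at -1.48 and -1.67.

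For some called genes the arrays were far apart. Of the 524 higher probes 402 differed by less than 0.5 between arrays and 29 by more than 1, and of the 174 lower probes 114 and 19. Among genes with a symbol, the widest gaps besides those of Gstm6 and Cyp2a4 belonged to Smim8 (-2.12 and -0.17), Gipc2 (1.10 and 2.92), Sema3b (0.73 and 2.55) and Trim16 (1.11 and 2.89). Among probes without one, a probe for a protein similar to monoamine oxidase A was at 1.12 and 3.50 and the Ndr1 probe at 1.33 and 3.24. Conversely, Igfbp2, a growth factor binding protein, had large ratios on both arrays (-2.31 and -1.60, fitted -1.96 ± 0.45) and did not pass (adjusted p = 0.069); its 2 arrays of the PB pair were at -0.08 and 3.42. Of 162 genes with several probes, 7 had a called probe, all with 1 sign over their probes, but all probes were called for only 2 of the 7. The second probe of Gstm5 was at 0.71 and did not pass (adjusted p = 0.054). The median gap between probes of a gene was 0.289.

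WT liver was measured against the same kind of CAR-KO liver, and since both comparisons share it, their values are given side by side. The genes called in tumour were chosen by their tumour ratio, which by itself favours a larger value there. Among the 341 higher genes the median was 1.09 in tumour and 0.31 in WT liver, and among the 96 lower genes -1.08 and -0.28; 15 and 2 of them were also called in WT liver, where 19 probes were higher and 2 lower in all. Over all 9942 genes the medians were 0.015 in tumour and -0.011 in WT liver, and over the 15 genes called higher in WT liver they were 3.24 and 2.34. Ly6d was at 4.82 in tumour and 3.58 in WT liver, Tuba8 at 2.74 and 1.41, Glul at 3.20 and 1.77, Sp5 at 2.68 and 0.72, and Nqo1 at 2.18 and 0.20. P450 genes lay on both sides: Cyp2b9 was at 4.23 and 4.76, Cyp2c37 at 2.70 and 3.18 and Cyp2c29 at 2.14 and 2.29, whereas Cyp2b13 was at 4.56 and 3.61, Cyp2c55 at 3.58 and 2.67 and Cyp2a4 at 2.66 and 1.88. On the lower side Cyp2f2 was at -2.05 and -0.15, Fut2 at -1.96 and 0.02 and Hamp at -1.90 and -0.82. The difference between the 2 ratios passed for 0 of 20743 probes (limma; lowest adjusted p = 0.137; 1737 probes at an unadjusted p under 0.05), including Nqo1 (1.98, adjusted p = 0.14). It passed for 47 probes with median centring, for 194 without tumour array 1 and for 2164 without tumour array 2, where a single array stands for the tumour.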

How the data were processed

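Two-colour Agilent mouse arrays were used, 6 in all, with dyes swapped within each pair; replicate numbers follow accession order. Per the file headers, the deposited intensity values are mean spot and local background signals from Agilent Feature Extraction 7.1.1 or 7.5.1; the submitters' processing notes name 7.5. The deposited value table holds the log10 ratio of Cy5 over Cy3 processed signals, equal to the software's own ratio; it was not used for the results. The deposited flags (a 0 or 1 per spot, with no other unit) gave background, saturation and outlier calls. The genome build of the array is not given in the sources used here.

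Background was corrected by normexp (offset 50), ratios were fitted by loess within each array, and spots of a probe were averaged (R 4.3.3, limma 3.58.1; tables with Python 3.11.15 and pandas 2.3.3). Probes well above background in at least 1 channel on at least 2 of the 6 arrays were tested, 20744 of 20868. All 6 arrays entered 1 limma fit with a coefficient per pair and a dye effect, which leaves 2 residual degrees of freedom; p-values were adjusted by Benjamini-Hochberg over all probes, with 0.05 as the threshold. Levels are log2 intensities per channel after loess and quantile normalization of average intensities. A gene is represented by its brightest probe. Genes are named by a rule: the 25 largest called increases and decreases, Nr1i3, Tuba8, the 6 most changed called members, or fewer, where a list had 2 or more calls, uncalled members for contrast, and the gene with the largest disagreement between probes (Kcnip2, 0.36 and -1.09, neither called); others are said to be chosen after their values were seen, and in lists, neighbours and array gaps follow from the count they stand in. The comparison, the genes and the 53 lists were chosen with earlier results of these data known. The labels do not say that the arrays of a pair hold separate extracts, so p-values measure the spread between arrays, which may be technical, and the number of arrays limits the precision. The script was tested on simulated data with independent noise of equal spread on all 6 arrays. The tumour arrays spread unequally, so that test does not bear on the effect of differences between arrays.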

Additional observations from a re-analysis of the deposited data

How the results depend on the processing

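The counts of 524 higher and 174 lower probes became 245 and 44 with a normexp offset of 16, 0 and 0 with the software's processed signals (2846 at an unadjusted p under 0.05 in limma), and 2370 and 1763 with median centring. They became 53 and 9 from the 2 tumour arrays alone, 368 and 99 without the dye effect, and 198 and 42 with array weights, where each tumour array weighed 0.503. They were 451 and 159 without background subtraction, 607 and 230 with a trended and robust prior, 581 and 201 with both channels well above background, and 522 and 171 with no filter. Leaving out 1 array at a time gave 218 to 1799 higher and 67 to 2909 lower probes, the highest values without tumour array 2, where the lone tumour array is assumed to vary like the others. The count of probes that differed between tumour and WT liver, 0 as reported, was 47 with median centring and 0 to 2164 without 1 array. The cause of these shifts was not tested. The 698 called probes kept their sign under each alternative that tested them (690 with both channels well above background), and 272 passed without each array. All 698 had the same sign on both tumour arrays, which favours a kept sign, so the kept sign is not a separate check. Each dye-swapped pair of arrays had its own coefficient in the fit. No pairing by animal or RNA extract was possible, because the labels do not give it. Dim probes limit the calls: 0.193% passed in the dimmest of 5 bins.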
